A study of Mus musculus with 8 samples.

Results

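Gene expression was compared between cells sorted from mouse pancreas for surface fibroblast activation protein (FAP) and mouse embryonic fibroblasts (MEFs) sorted for its absence. The comparison took the 2 pancreas libraries and the 2 MEF libraries, 4 of the 8 RNA-seq libraries of the series, and used every gene of the deposited table of bias-adjusted fragments, with the deposited RPKM values as a check. Digestive enzyme genes of the exocrine pancreas were kept apart from stromal genes. The remaining 4 libraries, 2 of FAP+ cells from skeletal muscle and 2 from visceral adipose tissue, entered the same fit and served to show where the pancreas cells stood apart from other FAP+ cells.

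The FAP+ cells of all 3 organs were sorted by flow cytometry from dissociated tissue, and the labels title those of the pancreas pancreatic stellate cells. The MEFs were embryonic cells that had been sorted as lacking FAP, grown through 3 passages and then sorted once more as lacking it. Every group had its RNA extracted with Purelink columns. MessageAmp amplification, which starts at the poly(A) tail, came next, and an Illumina mRNA kit then gave the libraries. The sources used here do not give strain, genotype, treatment, age or sex. The labels number the 2 libraries of a group as biological replicates, and the design text speaks of duplicate experiments. Tissue, developmental stage, FAP status and culture all differed between the pancreas cells and the MEFs, so their contributions to any difference below cannot be told apart.

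Pancreatic stellate cells are mesenchymal cells that lie around acini, ducts and vessels. At rest they store vitamin A as retinyl esters in lipid droplets, and in pancreatitis and pancreatic cancer they are known to turn into contractile, matrix-producing myofibroblasts. FAP is a membrane-bound serine protease of stromal cells, often used to mark fibroblasts of tumours and of healing tissue.

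The pancreas libraries held 17593056 and 17102944 estimated fragments and the MEF libraries 25433575 and 25155326, within the range of 15516319 to 27759399 over all 8. Levels are given as CPM, fragments relative to library size, scaled with TMM factors, always in the order library 1 and library 2, and compare one gene across libraries. A level of 3 fragments in a library, taken as the floor, equals 0.156 CPM in a pancreas library and 0.0900 or 0.0911 in a MEF library. Differences are fitted log2 values of pancreas minus MEF with their standard error (SE), from edgeR's quasi-likelihood test with p-values adjusted over all 14847 genes tested. Across genes, log2 CPM correlated at 0.973 between the pancreas libraries and 0.980 between the MEF libraries, at 0.748 to 0.763 between pancreas and MEFs, and at 0.853 to 0.932 between pancreas and the other FAP+ libraries, as a description. The muscle libraries correlated at 0.976 with each other and the adipose libraries at 0.918, and both pairs enter the spread of the fit. One transcript, that of the actin-severing protein gelsolin (Gsn), took 13.1% and 12.2% of the pancreas fragments against 0.291% and 0.308% of the MEF fragments, but 3.74% and 4.07% against 0.0779% and 0.0808% of the reads recovered from the RPKM table.

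At an adjusted p below 0.05, 3434 genes (23.1% of those tested) were higher in the pancreas cells and 2876 (19.4%) were lower. The higher side held the secreted and surface proteins of resident fibroblasts, complement, antigen presentation and immediate-early genes. The lower side held the cell cycle, cartilage and limb genes, contractile proteins and the fetal growth genes. The median log2 difference over all tested genes was 0.02, against 0.31 in the same test with no filter on low counts and -0.47 with limma on log2(FPKM + 1) over genes at 1 FPKM in 2 libraries, where both the measure and the filter differ. Setting the 369 tested genes without a fragment in the MEFs and the 80 without one in the pancreas cells at the floor, 195 of the higher calls exceeded 100-fold and 65 of the lower calls did. Without pancreas library 1, pancreas library 2, MEF library 1 or MEF library 2 the higher calls numbered 2147, 2273, 2002 and 2276 and the lower calls 1359, 1324, 1556 and 1883. Counts of 4 or fewer members of a list, below, often changed by 1 or 2 genes when a library was left out. Of all calls 54.4% were higher, against 31.6% to 44.6% when limma was run on the deposited FPKM values. Of the 6310 called genes, 5915 were also called with the same sign in the recovered reads. The opposite sign was found there for 4, counted whether or not they were called in those reads.

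**Figure D1:**
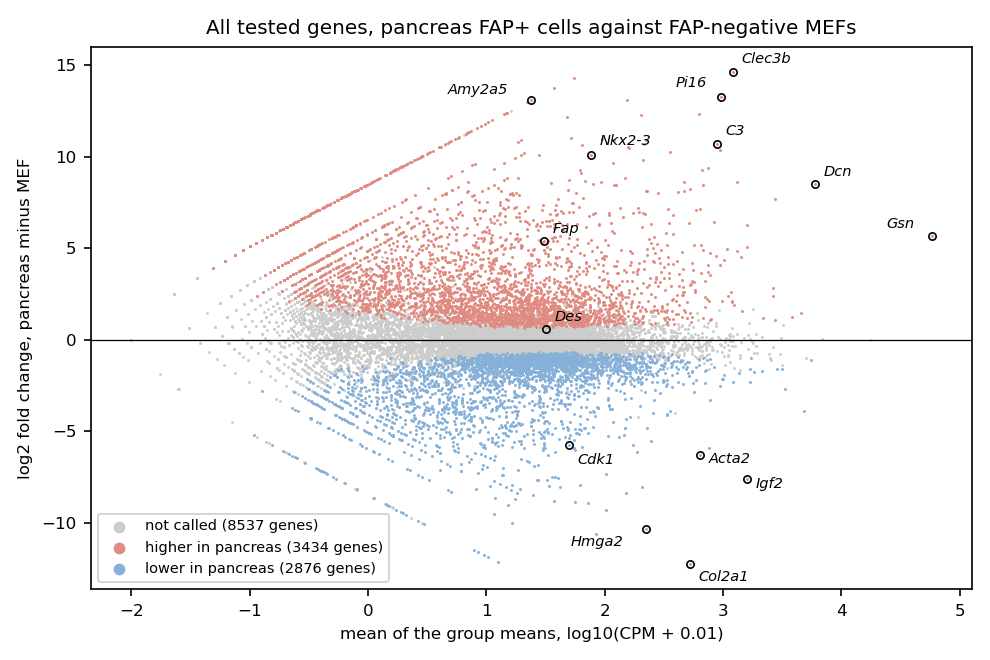
Each of the 14847 tested genes is a point, with the mean of the 2 group means on the x axis (CPM plus 0.01, log10 scale) and the log2 difference of pancreas FAP+ cells minus FAP-negative MEFs on the y axis. Red marks the 3434 genes called higher, blue the 2876 called lower and grey the 8537 not called, and straight streaks at the left are genes with few or no fragments in one group. Clec3b and Pi16 lie at the top right, Col2a1 and Hmga2 at the bottom right, and Fap on the red side.

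Fap itself, the gene of the protein used for the sort, stood at 55.4 and 65.6 CPM in the pancreas libraries against 2.37 and 0.516 in the MEF libraries (log2 difference 5.38 ± 0.65, adjusted p = 0.000601). Both pancreas libraries lay far above both MEF libraries, and since the sort selected on this protein the difference is a check of the labels and not a finding. The MEF libraries differed from each other, and the log2 difference was 6.84 without MEF library 1 and 4.68 without MEF library 2.

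The genes by which quiescent stellate cells are usually recognised were mixed. Of 25 tested members of that list, which joins retinoid handling genes with stellate markers, 11 (44%) were higher, 3 were lower and 11 were not called, with a median log2 difference of 1.09 beside 0.02 over all genes. Lrat, which esterifies retinol for storage, had 2 and 6 fragments in the pancreas libraries and none in the MEFs, and was too low to test. Gfap, a filament protein of resting stellate cells, stood at 0.104 and 0.468 CPM in the pancreas libraries and 0.09 and 0 in the MEF libraries (log2 difference 2.52 ± 1.66, adjusted p = 0.251). Desmin (Des), the filament protein most often used to stain them, was detected in every library, at 41.6 and 34.6 CPM in the pancreas libraries against 23.4 and 27.8 in the MEF libraries, a difference that was not called (log2 difference 0.57 ± 0.31, adjusted p = 0.167). Without adipose library 2 in the fit it was called, at an adjusted p of 0.0493. Vimentin (Vim), a general mesenchymal filament, stood at 3279.8 and 3442 CPM in the pancreas libraries against 6373 and 6875 in the MEF libraries and was not called (adjusted p = 0.0698), but was called lower when adipose library 1 or adipose library 2 was left out (adjusted p = 0.00282 and 0.0034), with DESeq2 (0.0134) and in the recovered reads (0.0156). The 2 groups did not overlap for desmin or vimentin. With 2 libraries in each group, a lack of overlap describes the values and supports nothing, here and below. The markers thus differed, with Lrat near 0 and others such as Cygb, Ngfr and Aldh1a2, described below, higher than in the MEFs. Of the 25 tested members only 2, Aldh1a2 and Hand2, were also called higher than in both muscle and adipose FAP+ cells. The cells are called pancreas FAP+ cells below. In bulk samples, fewer cells of a type and less RNA per cell cannot be told apart.

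Retinoid genes other than Lrat were among the larger differences of this list. Aldh1a2, which makes retinoic acid from retinaldehyde, stood at 98.3 and 90.8 CPM in the pancreas libraries against 1.23 and 1.09 in the MEF libraries (log2 difference 6.34 ± 0.37, adjusted p = 4.71e-05). Aldh1a1, another such dehydrogenase, stood at 56.3 and 55.2 against 0.84 and 0.668 CPM (log2 difference 6.20 ± 0.32, adjusted p = 4.53e-05). The serum retinol carrier Rbp4 was at 32.6 and 22.1 against 2.04 and 1.91 CPM (log2 difference 3.79 ± 0.49, adjusted p = 0.000837). For each of these 3 genes both pancreas libraries exceeded both MEF libraries. The retinoic acid receptor Rarb, itself a retinoic acid target, followed at 6.15 and 9.15 against 0.99 and 0.698 CPM (log2 difference 3.17 ± 0.38, adjusted p = 0.00058), and so did Rarres2, which encodes the chemoattractant chemerin, at 373 and 272 against 0.24 and 0.212 CPM (log2 difference 10.44 ± 0.83, adjusted p = 0.000107). Receptors Rara and Rarg were not called against the MEFs, with log2 differences of 0.84 ± 0.53 and 0.57 ± 0.32, but were called higher without adipose library 1 (adjusted p = 0.00948 for Rara and 0.0236 for Rarg) or adipose library 2 (0.00813 and 0.0223). The binding proteins of retinoic acid went the other way. Crabp1 stood at 122 and 103 CPM in the MEF libraries against 0.208 and 0.26 in the pancreas libraries (log2 difference -8.87 ± 0.61, adjusted p = 6.50e-05). Crabp2 was at 28.9 and 25.3 CPM in the MEF libraries against 0.0521 and 0.26 in the pancreas libraries (log2 difference -7.39 ± 0.54, adjusted p = 8.13e-05).

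Among the other stellate genes, cytoglobin (Cygb), a haem protein by which stellate cells of liver and pancreas are marked, stood at 577 and 838 CPM in the pancreas libraries against 0.69 and 0.455 in the MEF libraries (log2 difference 10.26 ± 0.53, adjusted p = 4.53e-05). Ngfr, the p75 neurotrophin receptor, was at 19.9 and 20 against 1.29 and 0.82 CPM (log2 difference 4.23 ± 0.72, adjusted p = 0.00289). Both were higher in each pancreas library than in either MEF library. Nestin (Nes), a filament protein of activated stellate and progenitor cells, was lower, at 1.56 and 1.92 against 36.7 and 55.2 CPM (log2 difference -4.72 ± 0.47, adjusted p = 0.000275). Lipid droplet protein Plin2 did not differ beyond its error, at 56.8 and 63.9 against 49.6 and 57 CPM (log2 difference 0.18 ± 0.27, adjusted p = 0.623).

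**Figure D2:**
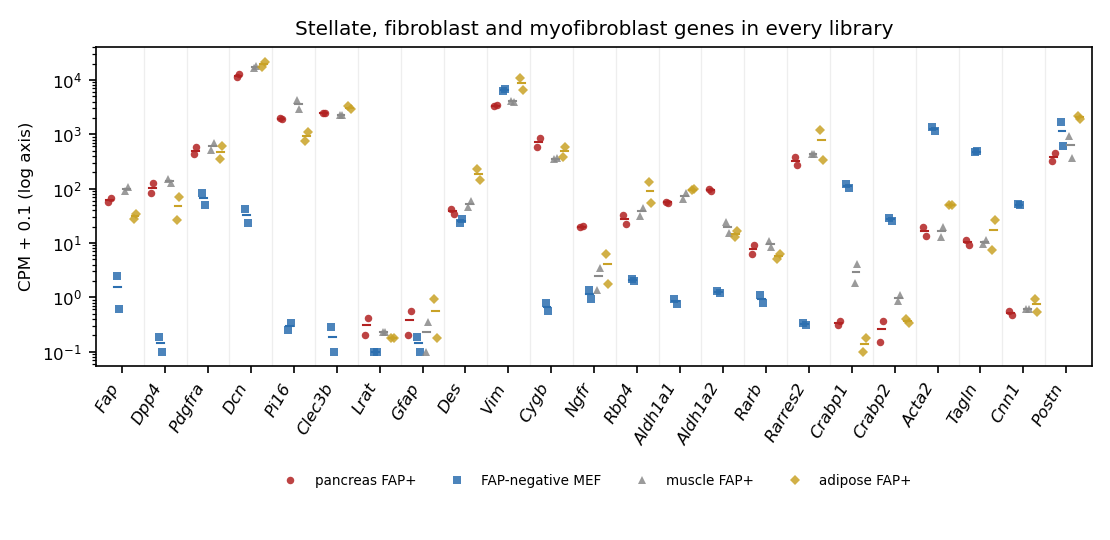
Levels of 23 stellate, fibroblast, retinoid and contractile genes are plotted by library on a log axis of CPM plus 0.1, with circles for pancreas FAP+ cells, squares for MEFs, triangles for muscle FAP+ cells and diamonds for adipose FAP+ cells, and a short line at each group mean. Cygb and Aldh1a2 lie higher in both pancreas libraries than in both MEF libraries, Acta2, Tagln and Crabp1 lie lower, and Des lies close in pancreas and MEFs.

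The contractile programme of myofibroblasts was lower. Of 23 tested members of that list 17 (73.9%) were lower and 2 were higher, with a median log2 difference of -2.38. Acta2, the smooth muscle actin by which activated stellate cells are recognised, stood at 19.5 and 13.2 CPM in the pancreas libraries against 1380.1 and 1163 in the MEF libraries (log2 difference -6.28 ± 0.42, adjusted p = 6.15e-05). The actin-binding proteins transgelin (Tagln), at 11.5 and 9.09 against 464 and 497 CPM (log2 difference -5.55 ± 0.62, adjusted p = 0.000447), and calponin (Cnn1), at 0.469 and 0.364 against 51 and 49.8 CPM (log2 difference -6.90 ± 0.39, adjusted p = 4.64e-05), were lower too. So were the other smooth muscle actin Actg2, at 0.156 and 0.156 against 85.2 and 62.6 CPM (log2 difference -8.84 ± 0.69, adjusted p = 9.95e-05), and the wound matrix protein tenascin C (Tnc), at 5.37 and 7.59 against 303 and 210.2 CPM (log2 difference -5.31 ± 0.45, adjusted p = 0.000141). In all 5 genes the lowest MEF library exceeded the highest pancreas library more than 10-fold. Both members called higher lost their calls without single libraries. The collagen receptor subunit Itga11 stood at 101 and 119 against 53.1 and 35.7 CPM (log2 difference 1.31 ± 0.33, adjusted p = 0.0152), and its adjusted p was 0.0537 without pancreas library 1, 0.0923 without pancreas library 2 and 0.0974 without MEF library 2. The sphingosine kinase Sphk1 stood at 112 and 96.3 against 45.3 and 47.9 CPM (log2 difference 1.16 ± 0.27, adjusted p = 0.0103), and its adjusted p was 0.0832 without pancreas library 1, 0.072 without MEF library 1 and 0.0523 without MEF library 2.

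Digestive enzyme genes were present in both pancreas libraries at unequal levels. Acinar cells make and secrete these enzymes and stromal cells do not, so the list was kept apart. Of the 48 acinar markers 26 passed the filter on low counts. These were called higher than in the MEFs and 0 were lower (edgeR, with 0 lower also at an unadjusted p below 0.05 and with limma on FPKM). Of the 48 markers 34 had no fragment in MEF library 1 and 33 none in MEF library 2, so a marker could pass the filter through the libraries where it is high, and the count is a description that supports nothing. The same limit holds for the counts of the other marker lists. Their summed level was 314 CPM in pancreas library 1 and 151 in pancreas library 2, against 3.51 and 3.34 in the MEF libraries, 63.3 and 49.6 in muscle and 77.5 and 57.4 in adipose. Pancreatic amylase (Amy2a5) stood at 66.6 and 28.6 CPM and had no fragment in the MEFs, at least 526-fold higher. Chymotrypsinogen (Ctrb1) was at 36.8 and 19.2 CPM, at least 309-fold higher than in the MEFs, again without a fragment there. Elastase Cela2a was at 32.6 and 13.9 CPM against 2 MEF fragments, a ratio of 769 (95% counting interval 212 to 6362). The acinar regulator Ptf1a and the stress-induced lectins Reg3b and Reg3g had 0 fragments in both pancreas libraries. Of the 26 acinar genes, 20 were also higher than in muscle and adipose FAP+ cells. Acinar RNA was measured in both pancreas libraries, and its part in the stromal results was not tested.

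Markers of other cells moved in part with the acinar sum. Ductal and epithelial markers summed to 397 and 192 CPM in the pancreas libraries against 63.1 and 85.8 in the MEFs. Of 15 tested members 11 were higher (73.3%, against 23.1% of all genes). Keratin 8 (Krt8) stood at 111 and 35.9 CPM in the pancreas libraries against 1.08 and 0.729 in the MEF libraries (log2 difference 6.34 ± 0.84, adjusted p = 0.000948). Keratin 19 (Krt19), the usual duct marker, stood at 33.2 and 11.9 against 28 and 35.7 CPM and was not called (log2 difference -0.50 ± 0.57, adjusted p = 0.509). Its groups overlapped. Mesothelial markers, which share Krt8, Krt18, Krt19 and Wt1 with other lists, summed to 275 and 97.4 against 58.2 and 75.5 CPM, with 4 of 10 tested higher (40%). The acinar, ductal and mesothelial sums were all higher in pancreas library 1 than in pancreas library 2. Islet markers summed to 111 and 107 against 13.6 and 10.1 CPM, with 7 of 11 higher (63.6%). The number called higher was 3 without pancreas library 1, 4 without MEF library 1 and 4 without MEF library 2. Insulin (Ins2) was at 2.61 and 5.56 CPM in the pancreas libraries, 3.06 and 2.83 in muscle and 3.51 and 0.243 in adipose, with no fragment in the MEFs.

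Vessel, blood and neural markers differed in sum as well. Endothelial markers summed to 125 and 129 CPM in the pancreas libraries against 37.7 and 40.1 in the MEFs, but to 983 and 974 in adipose FAP+ cells. Of 18 tested, 9 were higher and 3 lower than in the MEFs (50% and 16.7%, against 23.1% and 19.4% of all genes). The number called higher was 3 without pancreas library 1, 5 without pancreas library 2, 3 without MEF library 1 and 4 without MEF library 2. Most of that sum came from the angiopoietin receptor Tek, at 58 and 68.7 against 0.9 and 0.516 CPM (log2 difference 6.47 ± 0.44, adjusted p = 6.27e-05), and the fenestral protein Plvap, at 43.6 and 46.3 against 0.54 and 0.577 CPM (log2 difference 6.32 ± 0.43, adjusted p = 6.27e-05). Pericyte and smooth muscle markers summed to 474 and 427 against 333 and 339 CPM, with 8 of 14 higher and 3 lower (57.1% and 21.4%). Calls of higher members numbered 5 without MEF library 1 and 5 without MEF library 2. Myeloid markers summed to 10.6 and 9.61 against 5.22 and 7.29 CPM, lymphoid markers to 3.39 and 2.03 against 0.570 and 0.364, adipocyte markers to 1.93 and 3.59 against 0.960 and 0.698, and erythroid markers to 1.36 and 2.23 against 1.17 and 0.820. Schwann and neural markers summed to 79.6 and 79.4 in the pancreas libraries, below the 252 and 279 of the MEFs, and skeletal muscle markers to 87.3 and 77.5 against 49.1 and 50.1. Of the myeloid list 3 of 10 tested members were higher (30%), of the lymphoid list 1 of 2 (50%), of the adipocyte list 1 of 7 (14.3%) and of the erythroid list 0 of 5. The share over all genes was 23.1%, and that of the myeloid list was not far from it. The erythroid list also had 0 members at an unadjusted p below 0.05 and 0 with limma. Of the Schwann list 1 of 11 was higher and 4 were lower (9.09% and 36.4%, against 23.1% and 19.4% of all genes). Of the skeletal muscle list 3 of 7 were higher and 1 lower (42.9% and 14.3%). The part of these cells in the results was not tested.

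**Figure D3:**
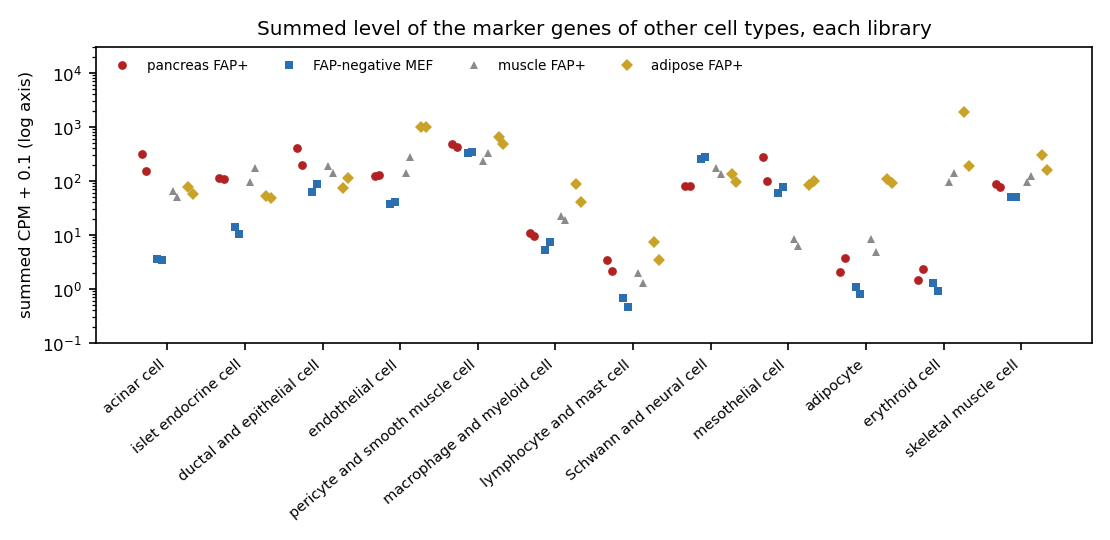
Summed CPM plus 0.1 of 12 marker lists of other cell types is plotted by library on a log axis, with circles for pancreas FAP+ cells, squares for MEFs, triangles for muscle and diamonds for adipose FAP+ cells. The acinar sum is highest in the pancreas libraries, at 314 and 151 CPM, and erythroid markers are at 1.36 and 2.23 CPM in pancreas against 1910 and 184 in adipose.

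Genes of resident tissue fibroblasts were higher in nearly every tested member. Of 26 tested members 25 (96.2%) were higher and 1 lower, with a median log2 difference of 5.14. Clec3b (tetranectin), a plasminogen-binding lectin, stood at 2486 and 2408 CPM in the pancreas libraries against 0.18 and 0 in the MEF libraries (log2 difference 14.64 ± 0.98, adjusted p = 6.15e-05). Pi16, a surface marker of adventitial fibroblasts, was at 1958 and 1919 against 0.15 and 0.243 CPM (log2 difference 13.23 ± 0.62, adjusted p = 4.53e-05). Dermatopontin (Dpt), a collagen-binding protein, was at 1856 and 1937 against 1.89 and 1.03 CPM (log2 difference 10.34 ± 0.54, adjusted p = 4.53e-05). The small proteoglycan decorin (Dcn), which regulates collagen fibrils, was at 11081 and 12696 against 42.6 and 22.7 CPM (log2 difference 8.51 ± 0.58, adjusted p = 6.36e-05). For each of these 4 genes the pancreas libraries exceeded the MEF libraries by more than 100-fold. Dpp4, the closest relative of Fap, was at 82.7 and 126 CPM against 3 MEF fragments, a ratio of 2309 (95% counting interval 789 to 11199). The ectonucleotidase Entpd2 was at 453 and 435 against 0.36 and 0.0911 CPM (log2 difference 10.91 ± 0.67, adjusted p = 5.07e-05). Gelsolin stood at 119869 and 108504 against 2221 and 2349 CPM (log2 difference 5.64 ± 0.62, adjusted p = 0.000404). Leaving Gsn out of the library sizes gave 3445 higher and 2894 lower calls. The 1 member that was lower was the ectonucleotidase Nt5e (CD73), at 0.208 and 0.26 against 21.9 and 24.2 CPM (log2 difference -6.59 ± 0.44, adjusted p = 6.15e-05).

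Other secreted or metabolic genes outside these lists were among the largest differences. The secreted protease Htra3 stood at 2673 and 2575 CPM in the pancreas libraries against 7.08 and 6.13 in the MEF libraries (log2 difference 8.63 ± 0.90, adjusted p = 0.000324). Hsd11b1, which regenerates active glucocorticoid, was at 391 and 466 against 0.27 and 0.243 CPM (log2 difference 10.68 ± 0.50, adjusted p = 4.53e-05). The phospholipase Pla1a was at 379 and 463 against 0.6 and 0.334 CPM (log2 difference 9.80 ± 0.47, adjusted p = 4.53e-05). The annexin Anxa8 was lower, at 0.469 and 0.52 against 119 and 127 CPM (log2 difference -7.94 ± 0.32, adjusted p = 4.53e-05). In none of these 4 genes did the groups overlap. By deposited FPKM, which corrects for transcript length, the highest genes of the pancreas cells included Gsn, Dcn, Fos, Clec3b and Sparc, and those of the MEFs Vim, Ftl1 and Lgals1, beside ribosomal protein genes in both.

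The collagens split by type. Of 22 tested interstitial collagens 7 were higher and 9 lower (31.8% and 40.9%, against 23.1% and 19.4% of all genes), with a median log2 difference of -0.12. Calls of lower members numbered 5 without MEF library 1. Col3a1, a fibril collagen of soft tissue, stood at 4329.9 and 4975 CPM in the pancreas libraries against 893 and 400.2 in the MEF libraries (log2 difference 2.85 ± 0.47, adjusted p = 0.00248). The fibril-associated Col14a1 was at 342 and 419 against 3.54 and 1.58 CPM (log2 difference 7.21 ± 0.58, adjusted p = 0.000115). The fibril chain Col5a3 was at 799.8 and 673 against 16.6 and 10.1 CPM (log2 difference 5.79 ± 0.58, adjusted p = 0.000276). The microfibril chain Col6a2 was at 1036 and 1041 against 80.2 and 70.3 CPM (log2 difference 3.79 ± 0.55, adjusted p = 0.00143). All 4 were higher in both pancreas libraries. The main fibril collagen Col1a1, given here although outside the rule for named genes, did not differ beyond its error, at 1289 and 1180.02 against 1139 and 975 CPM (log2 difference 0.22 ± 0.80, adjusted p = 0.843). The lower side held the cartilage collagens. Col2a1, the fibril collagen of cartilage, was at 1299 and 821 CPM in the MEF libraries against 0.156 and 0.26 in the pancreas libraries (log2 difference -12.28 ± 1.07, adjusted p = 0.000152). Its partner Col11a1 was at 0.156 and 0.052 against 201 and 138 CPM (log2 difference -10.59 ± 0.57, adjusted p = 4.64e-05). Col10a1, the collagen of hypertrophic cartilage, was at 0.104 and 0.104 against 26.8 and 31.8 CPM (log2 difference -8.06 ± 0.41, adjusted p = 4.53e-05). Col12a1, found in tendon and in dense matrix, was at 5.94 and 9.25 against 359 and 204 CPM (log2 difference -5.21 ± 0.41, adjusted p = 0.000104).

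Basement membrane genes were mostly higher, 17 of 26 tested (65.4%) against 3 lower, with a median of 1.94. The type IV collagen chain Col4a1 stood at 1334 and 1484 CPM in the pancreas libraries against 97.4 and 66.3 in the MEF libraries (log2 difference 4.11 ± 0.36, adjusted p = 0.000156). Laminin chain Lama2 was at 349 and 424 against 3.6 and 2.61 CPM (log2 difference 6.96 ± 0.38, adjusted p = 4.64e-05). Lama4 was at 321 and 392 against 31.5 and 16.9 CPM (log2 difference 3.88 ± 0.39, adjusted p = 0.000276). Col15a1, a collagen of the basement membrane zone, was at 467 and 430.04 against 1.77 and 1.49 CPM (log2 difference 8.10 ± 0.64, adjusted p = 0.000108). The groups were apart in all 4. Col7a1, the anchoring fibril collagen, was lower, at 3.34 and 3.22 against 20.8 and 15.2 CPM (log2 difference -2.45 ± 0.43, adjusted p = 0.00333), and so was the calcium-binding protein Smoc1, at 12.2 and 5.72 against 47.3 and 33 CPM (log2 difference -2.16 ± 0.43, adjusted p = 0.00566).

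Proteoglycans and matrix glycoproteins held 15 higher and 10 lower of 36 tested (41.7% and 27.8%, against 23.1% and 19.4% of all genes), with a median of 0.61. Tnxb, a tenascin that stabilises collagen and elastic fibres, stood at 1249 and 1266 CPM in the pancreas libraries against 0.18 and 0.304 in the MEF libraries (log2 difference 12.31 ± 0.54, adjusted p = 4.53e-05). Elastin (Eln) was at 298 and 354 against 16.4 and 7.62 CPM (log2 difference 4.76 ± 0.44, adjusted p = 0.000197). Ltbp4, which binds latent TGF-beta and elastic fibres, was at 3299.99 and 2955 against 47.3 and 35.2 CPM (log2 difference 6.24 ± 0.62, adjusted p = 0.000259). Every pancreas library exceeded both MEF libraries for these genes. On the lower side were the tendon and cartilage proteins Comp, at 1.09 and 1.45 against 38.8 and 27.6 CPM (log2 difference -4.70 ± 0.45, adjusted p = 0.000232), and aggrecan (Acan), at 0.104 and 0.104 against 32 and 32.9 CPM (log2 difference -8.21 ± 0.85, adjusted p = 0.000321), and Ltbp2, a fibrillin-binding protein, at 0.886 and 0.935 against 337 and 271 CPM (log2 difference -8.38 ± 0.51, adjusted p = 5.06e-05).

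Matrix-remodelling genes were higher in 21 of 35 tested (60%) and lower in 6, with a median of 1.61. The number called higher was 13 without pancreas library 2, 12 without MEF library 1 and 12 without MEF library 2. Adamts2, which trims procollagens, stood at 444 and 508 CPM in the pancreas libraries against 14 and 10.9 in the MEF libraries (log2 difference 5.26 ± 0.35, adjusted p = 6.24e-05), and the aggrecan-cleaving protease Adamts5 at 281 and 414 against 27.7 and 30.6 CPM (log2 difference 3.58 ± 0.41, adjusted p = 0.000499). Adamts15 was at 127 and 103 against 0.63 and 0.243 CPM (log2 difference 8.02 ± 0.48, adjusted p = 5.06e-05). These proteases were higher in both pancreas libraries. Lysyl oxidase (Lox), which crosslinks collagen, was lower, at 34.1 and 55.4 against 776 and 551 CPM (log2 difference -3.89 ± 0.61, adjusted p = 0.002). Its relative Loxl4 was at 7.77 and 9.77 against 74.6 and 64.3 CPM (log2 difference -2.99 ± 0.32, adjusted p = 0.000371). The protease inhibitor Timp1 was at 37.8 and 38.2 against 534 and 739.6 CPM (log2 difference -4.07 ± 0.65, adjusted p = 0.00223). The collagen prolyl hydroxylase P4ha3 was at 0.886 and 0.883 against 64.1 and 53.9 CPM (log2 difference -6.05 ± 0.42, adjusted p = 6.50e-05).

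**Figure D4:**
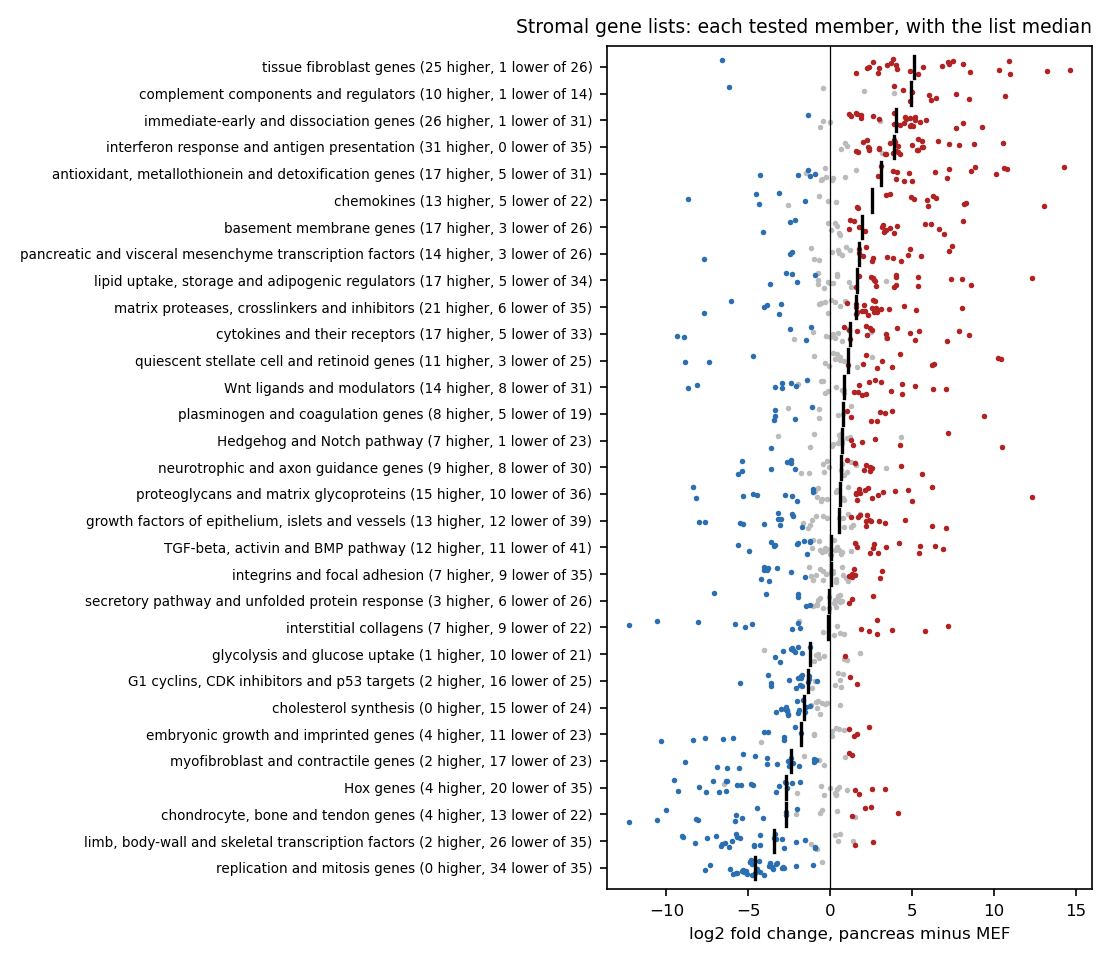
Each dot is a tested member of 1 of 31 gene lists, placed by its log2 difference of pancreas FAP+ cells minus MEFs and coloured red where called higher, blue where called lower and grey where not called, with lists sorted by their median, drawn as a black bar. Tissue fibroblast and complement genes lie at the high end, with medians of 5.14 and 4.94, and replication and mitosis genes at the low end, with a median of -4.58.

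Complement genes, whose products circulate and coat targets for clearance, were higher in 10 of 14 tested (71.4%) and lower in 1. The median was 4.94, or 4.73 with genes at 0 fragments in a group set at the floor. C3, the central component, stood at 1974 and 1609 CPM in the pancreas libraries against 1.53 and 0.607 in the MEF libraries (log2 difference 10.70 ± 0.81, adjusted p = 8.75e-05). The initiating proteases C1s, at 1362 and 1346 against 6 and 1.67 CPM (log2 difference 8.46 ± 0.74, adjusted p = 0.000154), and C1ra, at 398 and 423 against 7.53 and 4.13 CPM (log2 difference 6.14 ± 0.41, adjusted p = 6.27e-05), were higher, and so were factor B of the alternative pathway (Cfb), at 89.4 and 71.1 against 0.57 and 0.212 CPM (log2 difference 7.66 ± 0.58, adjusted p = 8.63e-05), and C2, at 46.7 and 37.5 against 0.54 and 0.395 CPM (log2 difference 6.48 ± 0.53, adjusted p = 0.000122). In all 5 the groups were far apart. Serping1, the inhibitor of C1 proteases, was at 1552 and 1413 against 3.24 and 1.18 CPM (log2 difference 9.38 ± 0.74, adjusted p = 0.000106). It belongs to the plasminogen and coagulation list, with a median of 0.81. Of its 19 tested members 8 were higher and 5 lower (42.1% and 26.3%, against 23.1% and 19.4% of all genes). Calls of higher members numbered 5 without pancreas library 2 and 5 without MEF library 1, and calls of lower members numbered 2 without pancreas library 1, 2 without pancreas library 2, 3 without MEF library 2 and 8 without adipose library 1. Tissue plasminogen activator (Plat) was at 215 and 239.6 against 49.8 and 31.7 CPM (log2 difference 2.48 ± 0.35, adjusted p = 0.0013) and the thrombin-binding receptor thrombomodulin (Thbd) at 189 and 189.8 against 26.3 and 19.7 CPM (log2 difference 3.04 ± 0.32, adjusted p = 0.000334). The urokinase receptor Plaur was lower, at 7.09 and 6.96 against 59.7 and 92.3 CPM (log2 difference -3.43 ± 0.42, adjusted p = 0.000631), and so was the thrombin receptor F2r, at 6.2 and 8.73 against 99 and 55.8 CPM (log2 difference -3.37 ± 0.60, adjusted p = 0.00353).

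Chemokines, which guide leukocytes, were higher in 13 of 22 tested (59.1%) and lower in 5, with a median of 2.55. Calls of lower members numbered 3 without pancreas library 1, 2 without pancreas library 2, 2 without MEF library 1 and 3 without MEF library 2. The eosinophil attractant Ccl11 stood at 293 and 326 CPM against 2 MEF fragments, a ratio of 10267 (95% counting interval 2841 to 84785). Cxcl1, which attracts neutrophils, was at 213 and 242 against 3.78 and 3.73 CPM (log2 difference 5.92 ± 0.39, adjusted p = 6.04e-05). The interferon-induced Cxcl10 was at 26.7 and 18.9 against 0.84 and 0.668 CPM (log2 difference 4.91 ± 0.45, adjusted p = 0.000188). Every muscle and adipose library was higher in both, with 767 and 508 CPM of Cxcl1 in muscle and 1021 and 1271 in adipose. The membrane-bound chemokine Cx3cl1 was lower, at 2.24 and 2.13 against 17.6 and 20.3 CPM (log2 difference -3.11 ± 0.47, adjusted p = 0.00167). Cxcl5 had 2 fragments in the pancreas cells against 26.4 and 20.4 CPM in the MEFs, a ratio of MEF to pancreas of 449.9 (95% counting interval 124 to 3718).

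Cytokines and their receptors were higher in 17 of 33 tested (51.5%) and lower in 5, with a median of 1.21, or 1.10 with genes at 0 fragments in a group set at the floor. The number called higher was 11 without MEF library 1, and the number called lower was 2 without pancreas library 1 and 3 without pancreas library 2. The alarmin Il33 stood at 205 and 269 CPM in the pancreas libraries against 1.29 and 0.0304 in the MEF libraries (log2 difference 8.47 ± 1.14, adjusted p = 0.000978), Il6 at 28.6 and 28.3 against 0.18 and 0.212 CPM (log2 difference 7.14 ± 0.40, adjusted p = 4.64e-05), and the B cell survival factor Tnfsf13b at 16.1 and 15.2 against 0.09 and 0.0304 CPM (log2 difference 7.89 ± 0.61, adjusted p = 9.34e-05). Il34, a ligand of the macrophage receptor Csf1r, was at 92.7 and 108 against 3.24 and 3.64 CPM (log2 difference 4.86 ± 0.36, adjusted p = 8.16e-05). The groups were apart in all 4. The receptor of Il33, Il1rl1, went the other way, at 213 and 196 CPM in the MEF libraries against 0.417 and 0.208 in the pancreas libraries (log2 difference -9.33 ± 0.59, adjusted p = 5.64e-05). So did the interleukin-1 antagonist Il1rn, at 0.313 and 0.26 against 197 and 89.3 CPM (log2 difference -8.94 ± 0.74, adjusted p = 0.000123).

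Genes of the interferon response and antigen presentation were higher in 31 of 35 tested (88.6%) and 0 were lower by edgeR, by edgeR at an unadjusted p below 0.05 or by limma on FPKM. The median was 3.89, or 3.82 with genes at 0 fragments in a group set at the floor. Interferon induces many of these genes through a promoter element called ISRE (GAAA, any 2 bases, then GAAA), which was searched on both strands from 250 bases before to 50 after the RefSeq start. A match was found in 10 of the 27 members with a sequence (37.0%) and in 373 of all 10316 tested genes with one (3.62%). Among those with a match are H2-T23, a class I molecule, and Bst2, a membrane protein that tethers budding viruses and was chosen for display after its values were seen. Their 250 bases before the start (RefSeq, GRCm38.p6, printed 5′ to 3′ on the strand of the gene; H2-T23 at chr17:36032702-36032951, minus strand, and Bst2 at chr8:71537473-71537722, minus strand) show the matches in capitals, that of H2-T23 on the opposite strand and the 2 of Bst2 overlapping each other.
H2-T23: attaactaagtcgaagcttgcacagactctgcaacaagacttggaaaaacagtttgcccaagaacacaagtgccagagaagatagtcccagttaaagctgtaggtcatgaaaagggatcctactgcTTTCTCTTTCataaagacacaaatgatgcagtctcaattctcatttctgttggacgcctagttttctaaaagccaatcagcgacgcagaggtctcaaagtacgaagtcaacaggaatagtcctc
Bst2: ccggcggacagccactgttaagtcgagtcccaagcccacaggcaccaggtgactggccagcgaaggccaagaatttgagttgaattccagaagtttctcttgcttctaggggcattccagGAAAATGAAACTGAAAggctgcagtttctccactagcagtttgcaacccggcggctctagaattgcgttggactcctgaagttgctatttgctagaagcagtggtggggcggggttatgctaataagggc
A match is a description of the letters and shows no binding. The deposited values were made on build mm9, and no coordinates of the deposited data were used.

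Bst2 stood at 129 and 97 CPM in the pancreas libraries against 6.81 and 7.5 in the MEF libraries (log2 difference 3.98 ± 0.47, adjusted p = 0.000577). H2-T23, which may share reads with near-identical relatives, stood at 172 and 158 against 9.03 and 9.93 CPM (log2 difference 4.12 ± 0.39, adjusted p = 0.000227). The antiviral enzyme gene Oasl2 was at 33.9 and 37 against 0.3 and 0.152 CPM (log2 difference 7.26 ± 0.38, adjusted p = 4.64e-05). The interferon regulator Irf7 was at 41.9 and 44.3 against 0.84 and 0.85 CPM (log2 difference 5.66 ± 0.47, adjusted p = 0.000129). The immunoproteasome subunit Psmb8 was at 75.4 and 54.5 against 1.89 and 1.24 CPM (log2 difference 5.37 ± 0.60, adjusted p = 0.000429). All of these were higher in both pancreas libraries than in either MEF library. Muscle and adipose FAP+ cells had similar or higher levels of Irf7, at 67 and 41.6 and 137 and 67.4 CPM.

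Immediate-early genes, which respond within minutes to stimuli that include tissue dissociation, were higher in 26 of 31 tested (83.9%) and lower in 1, with a median of 4.02. Fos stood at 5420.3 and 5548 CPM in the pancreas libraries against 27.6 and 26.4 in the MEF libraries (log2 difference 7.67 ± 0.47, adjusted p = 5.13e-05). Fosb was at 1575 and 1059.9 against 1.62 and 2.61 CPM (log2 difference 9.28 ± 0.58, adjusted p = 5.31e-05). The stress-induced factor Atf3 was at 528 and 372 against 1.77 and 1.52 CPM (log2 difference 8.09 ± 0.47, adjusted p = 4.71e-05). The orphan receptor Nr4a1 was at 477 and 449 against 9.15 and 11.6 CPM (log2 difference 5.48 ± 0.39, adjusted p = 7.08e-05). The mRNA-destabilising protein Zfp36 was at 730.3 and 557 against 13.4 and 9.11 CPM (log2 difference 5.84 ± 0.40, adjusted p = 6.36e-05). The groups did not overlap in any of them. Fos was as high in muscle FAP+ cells, at 4644 and 6169 CPM. All 3 FAP+ populations were dissociated from tissue and the MEFs were grown in culture, so dissociation and cell identity cannot be told apart here.

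Signalling pathways were mixed. The TGF-beta, activin and BMP list had 12 higher and 11 lower of 41 tested (29.3% and 26.8%), not far from the shares over all genes, and a median of 0.07. Calls of lower members numbered 4 without pancreas library 1, 3 without pancreas library 2, 7 without MEF library 1 and 6 without MEF library 2. Ligands Gdf10, at 168 and 163 CPM in the pancreas libraries against 1.77 and 0.971 in the MEF libraries (log2 difference 6.91 ± 0.52, adjusted p = 8.63e-05), Bmp6, at 25.7 and 31.7 against 0.36 and 0.304 CPM (log2 difference 6.41 ± 1.07, adjusted p = 0.00268), and Bmp7, at 33 and 34.7 against 0.6 and 0.911 CPM (log2 difference 5.48 ± 0.38, adjusted p = 6.91e-05), were higher. So was the BMP receptor Acvrl1, at 211 and 181 against 4.29 and 4.8 CPM (log2 difference 5.43 ± 0.36, adjusted p = 6.04e-05). These 4 genes had a few CPM at most in the MEFs. The BMP target Id1 was lower, at 16.2 and 16.4 against 149 and 252 CPM (log2 difference -3.62 ± 0.51, adjusted p = 0.00129).

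Wnt ligands and modulators had 14 higher and 8 lower of 31 tested (45.2% and 25.8%, against 23.1% and 19.4% of all genes), with a median of 0.86. The number called lower was 4 without pancreas library 1, 5 without pancreas library 2 and 3 without MEF library 1. The R-spondin Rspo1, which potentiates Wnt signals, stood at 30.2 and 23.1 CPM in the pancreas libraries against 0.63 and 0.85 in the MEF libraries (log2 difference 5.16 ± 0.48, adjusted p = 0.000214). The Wnt target and feedback inhibitor Axin2 was at 15.3 and 13.4 against 0.93 and 0.455 CPM (log2 difference 4.36 ± 0.58, adjusted p = 0.000927). Another feedback inhibitor, Nkd1, was at 34.1 and 36.8 against 4.83 and 3.52 CPM (log2 difference 3.08 ± 0.29, adjusted p = 0.000207). Sfrp4, a secreted Wnt-binding protein, was at 79.4 and 93.9 against 1.68 and 0.546 CPM (log2 difference 6.28 ± 0.60, adjusted p = 0.000226). All 4 were higher in each pancreas library. A related R-spondin, Rspo2, had 2 fragments in the pancreas cells against 21.9 and 10.5 CPM in the MEFs, a MEF to pancreas ratio of 312 (95% counting interval 86.1 to 2576). The secreted protein Dkk3 was lower, at 24.4 and 33.8 against 155 and 94.9 CPM (log2 difference -2.10 ± 0.38, adjusted p = 0.00373).

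Of 23 tested Hedgehog and Notch genes 7 were higher (30.4%, against 23.1% of all genes) and 1 lower, with a median of 0.70. With limma on log2(FPKM + 1) 4 were higher and 2 lower. Gli1, both effector and target of Hedgehog signals, stood at 24.6 and 18.3 CPM in the pancreas libraries against 1.23 and 0.971 in the MEF libraries (log2 difference 4.28 ± 0.66, adjusted p = 0.00186). The Notch target Heyl, also a pericyte marker, was at 28.1 and 26.6 against 0.3 and 0.0607 CPM (log2 difference 7.20 ± 0.68, adjusted p = 0.000216). Both were higher in each pancreas library than in every other library. Neither was called higher than in both muscle and adipose FAP+ cells.

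Growth factors for epithelium, islets and vessels divided into 13 higher and 12 lower of 39 tested (33.3% and 30.8%, against 23.1% and 19.4% of all genes), with a median of 0.55. Igf1 stood at 649 and 619 CPM in the pancreas libraries against 71.7 and 50.9 in the MEF libraries (log2 difference 3.37 ± 0.35, adjusted p = 0.000336). Fgf1 was at 16.4 and 22.2 against 0.12 and 0.152 CPM (log2 difference 7.09 ± 0.40, adjusted p = 4.64e-05). Fgf18 was at 59 and 44.2 against 0.48 and 0.88 CPM (log2 difference 6.24 ± 0.45, adjusted p = 7.42e-05). The insulin-like growth factor binding proteins Igfbp6, at 1831 and 1494 against 67.4 and 73.6 CPM (log2 difference 4.56 ± 0.50, adjusted p = 0.000415), and Igfbp4, at 942 and 934 against 129 and 112 CPM (log2 difference 2.96 ± 0.29, adjusted p = 0.000236), were higher as well. Igf2, the fetal counterpart of Igf1, was lower, at 17.9 and 14.4 against 3339 and 3056 CPM (log2 difference -7.63 ± 0.46, adjusted p = 5.06e-05). The EGF receptor ligand Hbegf was at 3.96 and 4.47 against 24.2 and 47.1 CPM (log2 difference -3.08 ± 0.42, adjusted p = 0.0011), the PDGF receptor ligand Pdgfc at 5.94 and 7.69 against 75.7 and 49.6 CPM (log2 difference -3.20 ± 0.50, adjusted p = 0.0019), and pleiotrophin (Ptn), a heparin-binding factor, at 15.6 and 26.1 against 266 and 120.4 CPM (log2 difference -3.21 ± 0.47, adjusted p = 0.00141), all lower in both pancreas libraries.

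Neurotrophic and axon guidance genes held 9 higher and 8 lower of 30 tested (30% and 26.7%), not far from the shares over all genes, with a median of 0.68, or 0.32 with genes at 0 fragments in a group set at the floor. The neurotrophin Ntf3 stood at 70.6 and 77.5 CPM in the pancreas libraries against 1.86 and 1.15 in the MEF libraries (log2 difference 5.61 ± 0.42, adjusted p = 8.31e-05), and another neurotrophin, Bdnf, went the other way, at 0.625 and 1.77 against 43.4 and 76.4 CPM (log2 difference -5.64 ± 0.62, adjusted p = 0.000414). The guidance cue Slit3 was at 251 and 238 against 14.8 and 9.62 CPM (log2 difference 4.32 ± 0.33, adjusted p = 9.52e-05). Netrin 1 (Ntn1) was at 32.3 and 40 against 8.88 and 6.71 CPM (log2 difference 2.21 ± 0.27, adjusted p = 0.000614). The repellent Sema3a was lower, at 1.56 and 3.17 against 118 and 76.2 CPM (log2 difference -5.36 ± 0.69, adjusted p = 0.000796), as was its co-receptor relative Nrp2, at 43 and 51.1 against 216 and 278 CPM (log2 difference -2.39 ± 0.32, adjusted p = 0.000978). None of these groups overlapped.

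Transcription factors of position separated the 2 kinds of cell. Of 26 tested factors of pancreatic and visceral mesenchyme 14 (53.8%) were higher and 3 lower, with a median of 1.77. Tcf21, needed for the mesenchyme of several visceral organs, stood at 131 and 110.2 CPM in the pancreas libraries against 0.69 and 0.88 in the MEF libraries (log2 difference 7.25 ± 0.69, adjusted p = 0.000227). Barx1, a factor of stomach and spleen mesenchyme, was at 54.8 and 51.3 against 3.45 and 1.79 CPM (log2 difference 4.34 ± 0.63, adjusted p = 0.00143). Wt1, a factor of the coelomic lining, was at 19.2 and 14.1 against 0.48 and 0.212 CPM (log2 difference 5.56 ± 0.45, adjusted p = 0.000113). Osr2 was at 129 and 111 against 5.1 and 4.01 CPM (log2 difference 4.72 ± 0.40, adjusted p = 0.000133). All 4 were higher in each pancreas library. Foxd1, a factor of kidney stroma, was lower, at 0.104 and 0.104 against 26.3 and 19.8 CPM (log2 difference -7.72 ± 0.44, adjusted p = 4.64e-05).

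Of 35 tested factors of limb, body wall and skeleton 26 (74.3%) were lower and 2 higher, with a median of -3.43, or -3.37 with genes at 0 fragments in a group set at the floor. The hindlimb factor Tbx4 stood at 17.1 and 14.5 CPM in the MEF libraries against 0.104 and 0.312 in the pancreas libraries (log2 difference -6.21 ± 0.58, adjusted p = 0.000215). Scleraxis (Scx), the tendon regulator, was at 0.313 and 0.468 against 58.8 and 84.3 CPM (log2 difference -7.50 ± 0.84, adjusted p = 0.000452). Tbx15 was at 0.469 and 0.416 against 53 and 37.6 CPM (log2 difference -6.66 ± 0.37, adjusted p = 4.64e-05). Lhx9, a factor of limb bud and gonad, had 2 fragments in the pancreas cells against 30.3 and 30.3 CPM in the MEFs, a MEF to pancreas ratio of 582 (95% counting interval 161 to 4809.5). The pancreas libraries were below 1 CPM for each of these 4 genes.

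Hox genes, whose expression follows the body axis, were lower in 20 of 35 tested (57.1%) and higher in 4, with a median of -2.67, or -2.62 with genes at 0 fragments in a group set at the floor. Hoxb4 stood at 18.6 and 24.3 CPM in the pancreas libraries against 3.63 and 3.7 in the MEF libraries (log2 difference 2.54 ± 0.30, adjusted p = 0.000544). Hoxb5 was at 18.6 and 19.3 against 1.86 and 1.91 CPM (log2 difference 3.32 ± 0.29, adjusted p = 0.000152). Genes of later paralogue groups were lower. Hoxa10 was at 0.469 and 0.364 against 87.6 and 71.8 CPM (log2 difference -7.56 ± 0.36, adjusted p = 4.53e-05). Hoxa11 was at 0.417 and 0.052 against 20.9 and 17.9 CPM (log2 difference -6.34 ± 0.80, adjusted p = 0.000747). Hoxc8 was at 0.365 and 0.312 against 16.3 and 18.7 CPM (log2 difference -5.67 ± 0.43, adjusted p = 8.87e-05). Hoxd13, of the last paralogue group, had 1 fragment in the pancreas cells against 23 and 23.8 CPM in the MEFs, a MEF to pancreas ratio of 899 (95% counting interval 161 to 35515). Hoxb9 had 3 pancreas fragments against 24.1 and 18.9 CPM, a ratio of 276 (95% counting interval 94.2 to 1339.7).

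Fetal growth genes were lower in 11 of 23 tested (47.8%) and higher in 4, with a median of -1.81. The chromatin protein Hmga2 stood at 362 and 530.3 CPM in the MEF libraries against 0.208 and 0.468 in the pancreas libraries (log2 difference -10.34 ± 0.51, adjusted p = 4.53e-05). The imprinted RNA H19 was at 26 and 22.8 against 1896 and 1106 CPM (log2 difference -5.94 ± 0.43, adjusted p = 7.43e-05). The mRNA-binding protein Igf2bp1 was at 0.208 and 0 against 18.6 and 54 CPM (log2 difference -8.37 ± 0.92, adjusted p = 0.000404). Its relative Igf2bp3 was at 0.313 and 0.52 against 38.7 and 39.2 CPM (log2 difference -6.53 ± 0.45, adjusted p = 6.50e-05). These were all lower in both pancreas libraries. The proteoglycan Gpc3, which restrains fetal growth, was higher, at 234 and 265 against 54.8 and 42.7 CPM (log2 difference 2.35 ± 0.30, adjusted p = 0.00081).

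Cartilage, bone and tendon genes were lower in 13 of 22 tested (59.1%) and higher in 4, with a median of -2.70, or -2.38 with genes at 0 fragments in a group set at the floor. Beside the cartilage collagens and aggrecan above, the tendon gene Tnmd had 1 fragment in the pancreas cells against 40.5 and 25.5 CPM in the MEFs, a MEF to pancreas ratio of 1271 (95% counting interval 228 to 50239). Thbs4, a tendon thrombospondin, was at 2.66 and 4.68 against 82.3 and 80.4 CPM (log2 difference -4.47 ± 0.36, adjusted p = 0.000108) and was higher still in muscle FAP+ cells, at 242 and 196 CPM. The parathyroid hormone receptor Pth1r went the other way, at 456 and 378 against 88.7 and 58.8 CPM (log2 difference 2.50 ± 0.35, adjusted p = 0.00125), as did alkaline phosphatase (Alpl), at 19.3 and 21.8 against 1.74 and 0.577 CPM (log2 difference 4.14 ± 0.61, adjusted p = 0.00151).

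Replication and mitosis genes were lower in 34 of 35 tested (97.1%) and 0 were higher by edgeR, by edgeR at an unadjusted p below 0.05 or by limma on FPKM, with a median of -4.58. The 1 member not called was E2f1, at 11.5 and 13.3 against 15.4 and 19.7 CPM (log2 difference -0.50 ± 0.25, adjusted p = 0.139). Many mitotic genes are repressed outside the cycle through a promoter element called CHR (TTTGAA). The CHR and another promoter element, the CCAAT box (CCAAT), were each searched on both strands. CHR was found in 13 of 29 members with a sequence (44.8%) against 14.3% of all tested genes with one, and CCAAT in 23 of 29 (79.3%) against 42.7%. Shown here are Cdk1, the kinase that drives entry into mitosis, and Cdc20, which activates the anaphase-promoting complex, the latter chosen after its values were seen. The 250 bases before the start (RefSeq, GRCm38.p6, on the strand of the gene; Cdk1 at chr10:69352913-69353162, minus strand, and Cdc20 at chr4:118437344-118437593, minus strand) carry both elements in capitals, none overlapping another, and the CCAAT matches of Cdk1 lie on the opposite strand and read ATTGG.
Cdk1: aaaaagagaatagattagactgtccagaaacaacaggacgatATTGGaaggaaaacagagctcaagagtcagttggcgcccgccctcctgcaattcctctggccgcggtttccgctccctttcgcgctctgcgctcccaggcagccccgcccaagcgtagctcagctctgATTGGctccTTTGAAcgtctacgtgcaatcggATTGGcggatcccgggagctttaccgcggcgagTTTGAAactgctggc
Cdc20: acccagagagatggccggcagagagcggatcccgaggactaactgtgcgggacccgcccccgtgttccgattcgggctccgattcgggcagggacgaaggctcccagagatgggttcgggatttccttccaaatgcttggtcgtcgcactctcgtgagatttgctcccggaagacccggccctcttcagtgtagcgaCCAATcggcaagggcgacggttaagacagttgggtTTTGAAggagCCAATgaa
As above, a match describes letters and no binding was measured.

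Cdk1 stood at 0.625 and 3.01 CPM in the pancreas libraries against 90.5 and 107 in the MEF libraries (log2 difference -5.76 ± 0.76, adjusted p = 0.000917). Cdc20 was at 2.66 and 8.05 against 195 and 219.6 CPM (log2 difference -5.27 ± 0.59, adjusted p = 0.000429). Cyclin B1 (Ccnb1), the partner of Cdk1, was at 0.313 and 3.17 against 113 and 102 CPM (log2 difference -5.94 ± 0.88, adjusted p = 0.00154). The checkpoint kinase Bub1 was at 0.208 and 0.312 against 68.2 and 38.5 CPM (log2 difference -7.65 ± 0.62, adjusted p = 0.000115). Survivin (Birc5) was at 2.45 and 8.21 against 316 and 422 CPM (log2 difference -6.11 ± 0.66, adjusted p = 0.000371). The ribonucleotide reductase subunit Rrm2 was at 0.625 and 1.87 against 204 and 204 CPM (log2 difference -7.35 ± 0.62, adjusted p = 0.000136). Every MEF library was above every pancreas library for these genes, and pancreas library 2 was above pancreas library 1.

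Genes of the G1 phase and p53 targets were lower in 16 of 25 tested (64%) and higher in 2, with a median of -1.39. The number called lower was 8 without pancreas library 1, 9 without pancreas library 2 and 10 without MEF library 2. The CDK4 and CDK6 inhibitor Cdkn2b stood at 49 and 43.9 CPM in the MEF libraries against 3.86 and 3.85 in the pancreas libraries (log2 difference -3.59 ± 0.40, adjusted p = 0.000439), and Cdkn2a, an inhibitor that builds up in cultured cells, at 0.365 and 0.831 against 14.6 and 39.2 CPM (log2 difference -5.48 ± 0.98, adjusted p = 0.00365). Cyclin G1 (Ccng1), a p53 target, was at 14.3 and 16.8 against 270.4 and 157 CPM (log2 difference -3.78 ± 0.41, adjusted p = 0.000402). The p53 target Cdkn1a was at 121 and 116 against 233 and 618 CPM (log2 difference -1.84 ± 0.45, adjusted p = 0.0138), but its adjusted p was 0.0939 without pancreas library 1, 0.0912 without pancreas library 2 and 0.0748 without MEF library 2.

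Lipid uptake and storage genes were higher in 17 of 34 tested (50%) and lower in 5, with a median of 1.65, or 1.41 with genes at 0 fragments in a group set at the floor. Calls of lower members numbered 3 without pancreas library 1 and 3 without pancreas library 2. Lipoprotein lipase (Lpl) stood at 774 and 1098 CPM in the pancreas libraries against 1.62 and 3.13 in the MEF libraries (log2 difference 8.62 ± 0.61, adjusted p = 6.99e-05). The apolipoproteins Apoe, at 709.6 and 410.3 against 2.19 and 2.06 CPM (log2 difference 8.04 ± 0.65, adjusted p = 0.000115), and Apod, at 21.1 and 30.7 against 0.3 and 0 CPM (log2 difference 7.37 ± 0.87, adjusted p = 0.000565), were higher, as was the transporter Abca8a, at 347 and 467 against 0.09 and 0.0607 CPM (log2 difference 12.30 ± 0.59, adjusted p = 4.53e-05). The fatty acid desaturase Scd2 was lower, at 86.3 and 100.2 against 598 and 327 CPM (log2 difference -2.31 ± 0.40, adjusted p = 0.00318), and so was the fatty acid binding protein Fabp5, at 1.98 and 2.34 against 28.2 and 27.2 CPM (log2 difference -3.68 ± 0.38, adjusted p = 0.000316). No libraries of the 2 groups overlapped in these 6 genes.

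Cholesterol synthesis was lower in 15 of 24 tested (62.5%), and 0 were higher by edgeR or by limma on FPKM, with 1 higher at an unadjusted p below 0.05. The median was -1.61. The number called lower was 9 without pancreas library 1 and 9 without MEF library 1. Squalene epoxidase (Sqle) stood at 114 and 83 CPM in the MEF libraries against 11.9 and 20.1 in the pancreas libraries (log2 difference -2.62 ± 0.36, adjusted p = 0.00107). Fdps, which makes farnesyl diphosphate, was at 25.8 and 32.1 against 179 and 189 CPM (log2 difference -2.67 ± 0.31, adjusted p = 0.000546). Idi1, an isomerase of the same pathway, was at 3.44 and 10.5 against 80.9 and 55.7 CPM (log2 difference -3.29 ± 0.54, adjusted p = 0.00243). Pancreas library 1 was the lowest of the 4 for each.

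Glycolysis genes were lower in 10 of 21 tested (47.6%) and higher in 1, with a median of -1.26. The glucose transporter Slc2a1 stood at 118 and 95.6 CPM in the MEF libraries against 11 and 14.5 in the pancreas libraries (log2 difference -3.07 ± 0.27, adjusted p = 0.000156). Phosphoglycerate kinase (Pgk1) was at 74.5 and 64 against 535 and 497 CPM (log2 difference -2.90 ± 0.30, adjusted p = 0.000316). Lactate dehydrogenase (Ldha) was at 599 and 528 against 2812 and 2772 CPM (log2 difference -2.31 ± 0.38, adjusted p = 0.00244). All 3 were lower in both pancreas libraries.

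Antioxidant and detoxification genes were higher in 17 of 31 tested (54.8%) and lower in 5, with a median of 3.11. The number called lower was 2 without pancreas library 1, 3 without MEF library 1 and 3 without MEF library 2. Extracellular glutathione peroxidase (Gpx3) stood at 1202 and 1332 CPM in the pancreas libraries against 11.3 and 6.65 in the MEF libraries (log2 difference 7.14 ± 0.59, adjusted p = 0.000121). Alcohol dehydrogenase (Adh1), which can also oxidise retinol, was at 185 and 188 against 0.57 and 0.364 CPM (log2 difference 8.62 ± 0.65, adjusted p = 8.63e-05). The methyltransferase Inmt was at 152 and 103 against 0.09 and 0.0607 CPM (log2 difference 10.62 ± 0.74, adjusted p = 6.50e-05). The carboxylesterase Ces1d, which hydrolyses lipid esters, was at 129 and 92.3 CPM with no MEF fragment, at least 1221-fold higher. Each of these was higher in both pancreas libraries. The NRF2 targets Nqo1 and Hmox1 were lower, Nqo1 at 1.51 and 2.03 against 30.9 and 37.4 CPM (log2 difference -4.26 ± 0.32, adjusted p = 8.29e-05) and haem oxygenase (Hmox1) at 12.7 and 13.4 against 43.4 and 59.5 CPM (log2 difference -1.98 ± 0.30, adjusted p = 0.00167).

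Integrins and focal adhesion genes had 7 higher and 9 lower of 35 tested (20% and 25.7%), near the shares over all genes, with a median of 0.02. Calls of higher members numbered 3 without pancreas library 1, 4 without pancreas library 2, 4 without MEF library 1 and 3 without MEF library 2. The hyaluronan receptor Cd44 stood at 1245 and 1592 CPM in the MEF libraries against 137 and 156 in the pancreas libraries (log2 difference -3.27 ± 0.35, adjusted p = 0.000351). Caveolin 1 (Cav1), the coat protein of caveolae, was at 28.3 and 31.4 against 564 and 406 CPM (log2 difference -4.02 ± 0.46, adjusted p = 0.000491). Syndecan 1 (Sdc1) was at 5.58 and 7.38 against 97.4 and 82.7 CPM (log2 difference -3.80 ± 0.50, adjusted p = 0.000913). The integrin chain Itga9 was higher, at 54.5 and 57.5 against 8.25 and 5.37 CPM (log2 difference 3.04 ± 0.39, adjusted p = 0.000813), as was the adhesion adaptor tensin 1 (Tns1), at 196 and 188 against 18.7 and 23.5 CPM (log2 difference 3.19 ± 0.32, adjusted p = 0.000275). The secretory pathway had 3 higher and 6 lower of 26 tested (11.5% and 23.1%, against 23.1% and 19.4% of all genes), with a median of -0.07. The number called lower was 3 without pancreas library 1, 3 without pancreas library 2, 3 without MEF library 1, 10 without adipose library 1 and 10 without adipose library 2. Its clearest differences were Asns, which makes asparagine, at 9.9 and 8.42 against 156 and 125 CPM (log2 difference -3.94 ± 0.31, adjusted p = 0.000109), and Creb3l1, a factor for collagen secretion, at 80.3 and 66.1 against 13.4 and 10.7 CPM (log2 difference 2.60 ± 0.35, adjusted p = 0.001). The groups did not overlap in either.

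The comparison with muscle and adipose FAP+ cells showed which of these differences were held by the pancreas cells alone. Far fewer genes separated the FAP+ populations: 228 (1.54%) were higher and 317 (2.14%) lower in pancreas than in muscle, and 493 (3.32%) higher and 851 (5.73%) lower than in adipose. These comparisons and the one with MEFs share the pancreas libraries. Higher than in all 3 other groups were 80 genes (0.539%), and lower than in all 3 were 69 (0.465%). Without pancreas library 1, pancreas library 2, muscle library 1 or muscle library 2 the 80 became 5, 3, 6 and 9, and the 69 became 7, 2, 23 and 18. Without MEF library 1 or MEF library 2 they became 49 and 50, and 30 and 33, and without adipose library 1 or adipose library 2 they became 135 and 136, and 124 and 124. Of the 80 higher genes 20 were acinar markers. They also held the epithelial markers Krt8, Epcam and Cdh1, the mesothelial marker Upk3b and the islet marker Ttr. The part of such cells in the 80 was not tested. Of the stromal lists, the visceral transcription factors held 4 of the 80 and 1 of the 69, the limb and body-wall factors 4 of the 69, the Hox genes 2 of the 80 and 4 of the 69, and the Wnt genes 3 of the 80.

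Positional factors were among the genes that set the pancreas cells apart. Nkx2-3, a homeobox factor of gut and spleen mesenchyme, stood at 152 and 154 CPM in the pancreas libraries against 0.06 and 0.212 in the MEF libraries, 0 and 0.0858 in muscle and 0.457 and 0 in adipose (log2 difference 10.08 ± 0.97, adjusted p = 0.000236 against MEFs, log2 difference 11.41 ± 1.10, adjusted p = 0.00307 against muscle). Barx1 was at 0.255 and 0 CPM in muscle and 0 and 0.0811 in adipose (log2 difference 8.89 ± 0.88, adjusted p = 0.00324 against muscle). With so few fragments of Nkx2-3 and Barx1 in muscle, the fitted differences against muscle depend on the prior count and are no bound. Hand2, a factor of heart, limb and enteric mesenchyme, was at 25.7 and 19.8 against 4.26 and 5.71 CPM, 0 and 0.0858 in muscle and 0.152 and 0.0811 in adipose (log2 difference 2.19 ± 0.40, adjusted p = 0.00403 against MEFs). The lowest pancreas library exceeded the other 6 libraries for all 3 genes. Hand2 met the test against all 3 groups in each of 20 alternative settings, Barx1 in 19, Nkx2-3 in 16 and Aldh1a2 in 15. Aldh1a2 was also apart, with 23.9 and 15.4 CPM in muscle and 12.7 and 16.7 in adipose (log2 difference 2.27 ± 0.30, adjusted p = 0.00914 against muscle, log2 difference 2.68 ± 0.31, adjusted p = 0.00425 against adipose).

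Secreted proteins and receptors followed. The Wnt feedback gene Nkd1 was at 34.1 and 36.8 CPM in pancreas, 7.21 and 8.24 in muscle and 6.63 and 8.07 in adipose. Pth1r was at 94.1 and 111 CPM in muscle and 127 and 81.3 in adipose (log2 difference 2.03 ± 0.35, adjusted p = 0.0234 against muscle). Adcyap1r1, a receptor of the neuropeptide PACAP, was at 345 and 339 against 3.3 and 2.28 CPM, 22.6 and 45.9 in muscle and 74.6 and 71 in adipose (log2 difference 6.94 ± 0.47, adjusted p = 6.36e-05 against MEFs). The matrix protein Spon2 was at 768 and 619 against 9.36 and 7.32 CPM, 77.9 and 87.6 in muscle and 189.7 and 135 in adipose (log2 difference 6.38 ± 0.38, adjusted p = 4.89e-05 against MEFs). Tnfrsf19, a member of the TNF receptor family, was at 19.1 and 16.4 against 1.05 and 0.637 CPM, 0.829 and 0.987 in muscle and 0.0762 and 0.0811 in adipose (log2 difference 4.39 ± 0.38, adjusted p = 0.000147 against MEFs), and met the test in each of 20 alternative settings. The pancreas libraries were the highest of the 8 for all of these genes. The teneurin Odz4 was at 60.1 and 66.5 against 1.05 and 2.76 CPM and the potassium channel Kcnn3 at 33.4 and 53.6 against 0.63 and 0.364 CPM, and Fam71a, at 43.5 and 44.1 CPM, had no MEF fragment (at least 484-fold higher). Of the 20 settings, Adcyap1r1, Spon2 and Odz4 met the test in 16, Nkd1, Pth1r and Kcnn3 in 15 and Fam71a in 12.

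Genes low in the pancreas cells alone again included positional factors. Hoxc6 was at 2.4 and 2.86 against 22.8 and 22.5 CPM, 23.2 and 21.7 in muscle and 24 and 24.7 in adipose (log2 difference -3.11 ± 0.25, adjusted p = 0.000114 against MEFs). Hoxc8 was at 17.5 and 15.3 CPM in muscle and 24.1 and 43.8 in adipose, against 0.365 and 0.312 in pancreas, and Hoxa7 was at 3.13 and 2.49 against 17.5 and 38.1 CPM, 14.4 and 13.6 and 27.4 and 24.3 (log2 difference -3.31 ± 0.41, adjusted p = 0.000692 against MEFs). Both pancreas libraries were the lowest of the 8 for these 3 genes. The water channel Aqp1 was at 2.19 and 0.883 against 64.2 and 54.4 CPM, 16.1 and 71.9 in muscle and 225 and 274 in adipose (log2 difference -5.27 ± 0.79, adjusted p = 0.00161 against MEFs). The matricellular protein Wisp2 was at 7.14 and 6.44 against 99.3 and 70.5 CPM, 67.2 and 54.3 and 35.1 and 29.4 (log2 difference -3.64 ± 0.30, adjusted p = 0.000122 against MEFs), and carboxypeptidase E (Cpe) at 6.67 and 5.87 against 411 and 272 CPM, 21.6 and 32.9 and 34.7 and 64.7 (log2 difference -5.77 ± 0.48, adjusted p = 0.000123 against MEFs). The prostaglandin transporter Slco2a1 was at 3.65 and 3.43 against 16.1 and 13.2 CPM, 14.2 and 14 and 37.1 and 34.4 (log2 difference -2.05 ± 0.25, adjusted p = 0.000612 against MEFs). No other library reached as low as the pancreas libraries. Of the 20 alternative settings, Hoxc6 and Hoxc8 met the test against all 3 groups in 19 and Wisp2 in 16. Aqp1 and Slco2a1 met it in 13, Hoxa7 in 12 and Cpe in 10.

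Sex-linked genes were among those that stood apart. Xist, the RNA that silences an X chromosome in female cells, was at 144 and 216 CPM in the pancreas libraries against 12.8 and 0.0911 in the MEF libraries (log2 difference 4.80 ± 1.44, adjusted p = 0.0298), and below 1 CPM in each muscle and adipose library. Its adjusted p against MEFs was 0.0786 without pancreas library 1, 0.1 without pancreas library 2, 0.0616 without muscle library 1 and 0.062 without muscle library 2. The Y-linked genes Ddx3y and Eif2s3y had no fragment in the pancreas libraries, at least 121-fold and at least 101-fold lower than the 20 and 17.9 and 14.7 and 16.8 CPM of the MEFs. Every muscle and adipose library expressed both. Sex is not on the labels, and for any gene that differs with sex it cannot be told apart from the tissue.

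**Figure D5:**
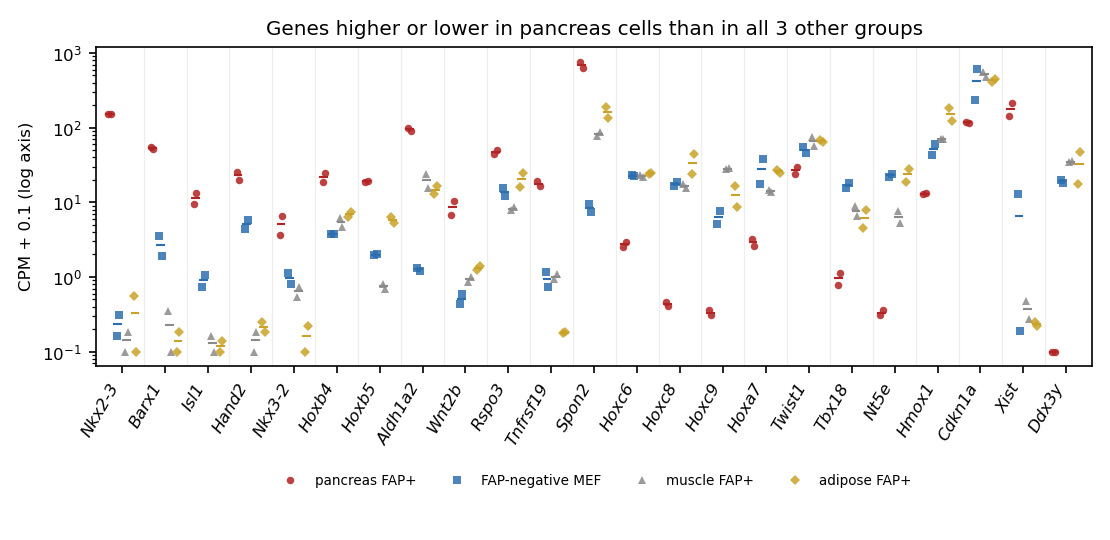
Levels of 23 genes that were higher or lower in pancreas FAP+ cells than in all 3 other groups are plotted by library on a log axis of CPM plus 0.1, with circles for pancreas FAP+ cells, squares for MEFs, triangles for muscle and diamonds for adipose FAP+ cells, and a short line at each group mean. Barx1 lies at 54.8 and 51.3 CPM in pancreas and at 3.45 CPM or less elsewhere, and Ddx3y is at 0 in both pancreas libraries. Least stable among the genes plotted, Cdkn1a met the test against all 3 groups in 6 of 20 alternative settings, Rspo3 in 7 and Twist1 in 8.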

How the data were processed

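RNA was sequenced from 8 mouse libraries, and 3 tables of the series were used. Per the file headers, the authors deposited bias-adjusted estimated counts of fragments, the matching FPKM values (fragments scaled to transcript length and library size), and RPKM values of a separate count. Build mm9 and the tools edgeR, HTSeq, TopHat2 and Bowtie2 appear, with no versions or roles, per the submitters' processing notes. The sources used here do not name the program of the bias adjustment. Fragments are listed for 22558 genes and RPKM values for 22609. Among the identifiers, 20439 were current symbols, 1980 were older symbols and 190 were neither. Sample names matched 8 columns of each, and the 6 further columns were left unused.

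The design named counts, and as the deposited fragments are estimated counts they were rounded to whole numbers first. The quasi-likelihood test of edgeR (4.0.16, in R 4.3.3) was run on them with TMM factors (1.09 and 1.13 in pancreas, 1.31 and 1.31 in MEFs) and filterByExpr on the 4 groups, without covariates. TMM factors were 1.01 and 1.02 in muscle and 0.516 and 0.889 in adipose. One model held the 8 libraries. It had 4 residual degrees of freedom, and the common biological coefficient of variation was 33.2%. Calls are genes with a Benjamini-Hochberg adjusted p below 0.05 over all genes tested. A group without a fragment gives only a bound of the fold, against 3 fragments per library, and 1 to 3 fragments over a group give a ratio with a 95% counting interval. Such bounds and intervals hold counting error alone, because amplification copies molecules. Deposited RPKM values were whole multiples of what 1 read is worth for 21901 genes (tolerance 0.001 reads), giving 9497145 to 16807757 reads per library, which were tested in the same way. The other alternatives were DESeq2 (1.42.0), upper quartile and RLE scaling, other filters, a fit of the 4 libraries alone, a replicate block, a 2-fold threshold, limma (3.58.1) on FPKM, each library left out, and Gsn left out of the library sizes, the last chosen after seeing the data. The fits were tested on simulated data.

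The comparison and the 31 stromal and 12 marker lists were chosen with earlier results of these data known, so lists are described by counts and medians and were given no test of their own. The text names Fap, Dpp4 and the stellate list, then the 15 highest and 15 lowest called genes by the ratio of mean CPM + 1, and up to 5 such genes of each list and direction. These needed 10 CPM or more in each library of the group where they are higher, and the 15 leave out marker lists and predicted genes. It adds the 15 highest FPKM values of each group, the 15 genes highest and 15 lowest against all 3 other groups, and the 3 highest markers of each list with those at 0. A few genes that meet this rule are not reported here, and the few named outside it are said to be so. The sources used here do not say whether strand was used in counting, so genes that overlap another, such as Xist and Tsix, cannot be separated from it. Promoter sequences are RefSeq's, of build GRCm38.p6.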

Additional observations from a re-analysis of the deposited data

Results flagged for a closer look

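Barx1, Hand2, Dnaja4, Ptx3, Gch1, Ccdc3, Flt1, 1190002H23Rik and Hoxc9 drew attention because the pancreas cells lay on one side of the MEFs while every muscle and adipose library lay on the other side of both MEF libraries, with muscle and adipose means at least 2-fold from the MEF mean and with the pancreas cells called apart from all 3 groups. Those genes among them that the report does not name were chosen by this pattern, after their values were seen. Barx1 and Hand2 were above the MEFs in pancreas and below them elsewhere, with log2 differences of pancreas minus muscle of 8.89 and 8.67. Of Barx1, muscle held 0.255 and 0 and adipose 0 and 0.0811 CPM, and of Hand2 they held 0 and 0.0858 and 0.152 and 0.0811, against 3.45 and 1.79 and 4.26 and 5.71 in the MEFs. With so few fragments of Hand2 and Barx1 in muscle, these fitted differences depend on the prior count and are no bound.

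The others were below the MEFs in pancreas and above them in muscle and adipose. Hoxc9 stood at 0.261 and 0.208 CPM in pancreas, 4.98 and 7.53 in MEFs, 27.4 and 28.4 in muscle and 16.5 and 8.52 in adipose, and pancreas minus muscle was -6.86. Ptx3, a soluble pattern recognition protein, stood at 47.5 and 72.6, 178 and 116, 668 and 463 and 1092 and 1283 CPM in the same order (-3.23 against muscle). The co-chaperone Dnaja4 stood at 5.99 and 6.76, 14.7 and 11.5, 48.2 and 55.6 and 26.6 and 29.5 CPM (-3.02). Gch1, which makes the cofactor tetrahydrobiopterin, stood at 0.573 and 0.364, 1.2 and 1.37, 6.82 and 5.53 and 9.45 and 10.7 CPM (-3.70). The secreted protein Ccdc3 stood at 1.09 and 1.56, 4.44 and 4.55, 30.7 and 21 and 9.07 and 10.1 CPM (-4.28), the VEGF receptor Flt1 at 0.782 and 0.727, 3.39 and 3.22, 3.95 and 14 and 38.5 and 30.9 CPM (-3.57), and 1190002H23Rik at 0.782 and 0.727, 6.69 and 4.37, 19.3 and 17.5 and 306 and 96.6 CPM (-4.60). Flt1 is also made by endothelial cells, whose 18 markers summed to 983 and 974 CPM in adipose against 125 and 129 in pancreas, and their part in the Flt1 values was not tested.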

How the results depend on the processing

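Each group has 2 libraries, so the spread used for an adjusted p was estimated from few samples, over all 8 libraries in 1 fit. Genes with few fragments were filtered out before the test. The 3434 higher calls became 2143 in the test against a 2-fold change, 2256 with limma at a pseudocount of 1 FPKM and 1708 when that test took genes at 1 FPKM in 2 libraries, and ranged from 2002 to 4621 with each library left out. The 2876 lower calls became 1360 in the test against a 2-fold change and ranged from 1324 to 4209 with each library left out. Genes higher than in all 3 other groups numbered 80 and became 127 with DESeq2, 35 against a 2-fold change, 163 on log2(FPKM + 1), 125 on log2(FPKM + 0.1) and 146 in the recovered reads, and ranged from 3 to 136 with each library left out. The 69 lower ones became 118 with DESeq2, 23 against a 2-fold change, 11 on log2(FPKM + 1), 16 on log2(FPKM + 0.1), 16 on genes at 1 FPKM and 112 in the recovered reads, and ranged from 2 to 124. A left-out library lowers the residual degrees of freedom, and the lone library of its group is then assumed to vary like the others. The cause of the remaining shifts was not tested. Fap was called in every alternative, with a log2 difference of 4.68 to 6.84 over the libraries left out. With the replicate block 3401 genes were higher and 2813 lower. Deviations of same-numbered libraries from their group means correlated at 0.003 for pancreas with MEFs, -0.011 for pancreas with muscle and 0.347 for pancreas with adipose. They correlated at -0.074 for MEFs with muscle, -0.156 for MEFs with adipose and 0.113 for muscle with adipose. With 2 libraries per group these values cannot decide whether replicate numbers pair the samples. Of 328 named genes with a test, 6469 of 6842 alternative values kept direction and call, 306 lost the call, 67 gained it and 0 reversed.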
